A study of Arabidopsis thaliana with 22 samples.

Results

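The comparison described here sets epidermal cells against cortical cells of Arabidopsis thaliana roots in the wild type Col0 after nitrate treatment. It was made from 5 of the 22 arrays of the series, namely 3 arrays of Col0 epidermal cells treated with KNO3 and 2 arrays of Col0 cortical cells treated with KNO3, across all 31524 transcript models on the array. The labels call the replicates biological. The submitters had removed replicate 3 of the cortex group for low quality scores. Per the labels' protocols, seedlings of both groups grew upright for 9 days with 0.1 mM KNO3 as nitrogen source and 30 mM sucrose (the source names give 12 days) and were moved at dawn to plates with 5 mM KNO3 for 2 h. Whole roots were then turned into protoplasts, and cells carrying a GFP reporter of one cell type were isolated by fluorescence-activated cell sorting. Which promoters drive the reporters is not stated in the labels. The other groups used below are epidermis and cortex of atscl26, a mutant labelled for the GRAS factor gene SCL26, under KNO3, and epidermis and cortex of both genotypes under the control. The titles call the control KCl (5 mM in the source names), whereas the protocol describes fresh plates with 0.1 mM KNO3, and it is called KCl here. These groups have 3 arrays each, except atscl26 epidermis KCl with 2.

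The epidermis is the outer layer of the root and takes up nitrate, ammonium, phosphate and iron from the medium. Its cells follow one of 2 fates, and MYB and bHLH factors around WER keep non-hair cells from forming a hair while RHD6 starts hair growth in the others. The cortex lies beneath it and belongs, with the endodermis, to the ground tissue, which the GRAS factors SHR and SCR pattern. Cortical cells pass water and solutes inward to the endodermis and the stele.

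Each array gives 1 RMA value per model on the log2 scale, so a difference of 1 is a doubling. Differences are epidermis minus cortex ± SE from limma, with p adjusted by Benjamini-Hochberg over all models. The 5 arrays were not equally reliable. Replicates 1 and 2 of the epidermis had median correlations of 0.868 and 0.887 with the other 21 arrays, and replicate 2 of the cortex had 0.888. Replicate 3 of the epidermis, at 0.8, and replicate 1 of the cortex, at 0.681, stood apart. The 2 cortex arrays correlated with each other at 0.665 and differed by more than 2 log2 units in 9335 models (29.6%), whereas cortex replicate 2 correlated with epidermis replicate 2 at 0.892. Cortex replicate 1 correlated with the mean of the 17 arrays of the other groups at 0.736, against 0.861 to 0.944 in the rest. In the dimmest 25% of models its median deviation from the 17 arrays of the other groups was 0.79, and in the brightest 25% it was -0.46. Over the same models the medians were -0.25 and 0.15 in cortex replicate 2 and 0.26 and -0.25 in epidermis replicate 3. They were between -0.21 and 0.15 in epidermis replicates 1 and 2. A low correlation with that mean by itself gives upward deviations in dim models and downward ones in bright models. These medians therefore do not measure the range of an array.

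**Figure D1:**
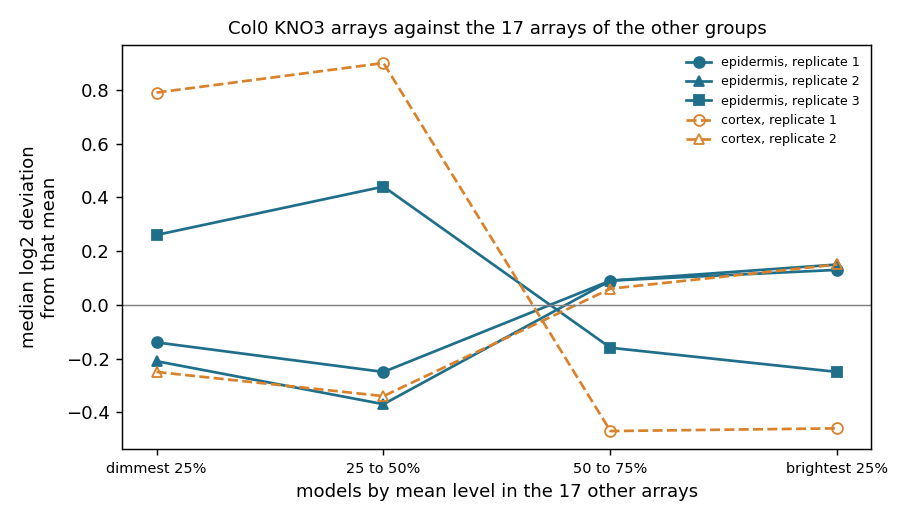
Median log2 deviation of each Col0 KNO3 array (vertical axis) from the mean of the 17 arrays of the other groups, over 4 equal groups of models ordered by that mean (horizontal axis), with epidermis arrays filled and solid and cortex arrays open and dashed. Cortex replicate 1 runs from 0.79 in the dimmest 25% to -0.46 in the brightest 25%, and epidermis replicate 3 tilts the same way, from 0.26 to -0.25.

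The cell type labels of the 5 arrays were checked with a score, the mean of the non-hair and root hair markers minus that of 5 cortex markers. It was 0.66, 0.70 and 0.01 in the epidermis arrays and -1.10 and -1.98 in the cortex arrays. All 5 lay on the side of their label from the midpoint of -0.95 between the cell types' medians over the series, cortex replicate 1 only narrowly. That array had the highest root hair mean of the 5 (9.68), and its non-hair mean of 9.18 exceeded the 9.08 of epidermis replicate 2. Its side therefore rested on its cortex marker mean of 10.65. In the other groups 7 arrays lay nearer the other cell type. They were replicates 1 and 2 of Col0 epidermis KCl, replicate 3 of atscl26 cortex KCl, and replicates 2 and 3 of both atscl26 epidermis KNO3 and atscl26 cortex KNO3.

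No model passed the adjusted threshold of 0.05 in limma between epidermis and cortex (0% of 31524, lowest adjusted p = 0.173). An unadjusted p under 0.05 was found for 2475 models (7.85%), of which 1412 were higher in the epidermis (4.48%) and 1063 lower (3.37%). The median standard error of a difference was 0.769. The median difference over all models was -0.17, and 40.9% of models were above 0. In the dimmest 25% of models 20.3% were above 0 and in the brightest 25% 57.9%. All 3 epidermis arrays exceeded both cortex arrays in 2294 models (7.28%), and both cortex arrays exceeded all 3 epidermis arrays in 2706 (8.58%). A gap of more than 1 log2 unit was left between the cell types in 491 models higher in the epidermis (1.56%) and in 368 higher in the cortex (1.17%). The differences depended on which cortex array was kept. Without cortex replicate 2 the median difference over all models was -0.347, and without cortex replicate 1 it was 0.148. Each of these fits left a lone cortex array. Cortex replicate 2 lay above all 3 epidermis arrays in 20% of models and below all 3 in 29.7%. For cortex replicate 1 the shares were 43.7% and 22.9%.

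The next genes were picked for the widest gap in favour of the epidermis, so their separation follows from the choice. AT5G43040, which has no symbol in the reference, stood at 12.73, 12.36 and 12.71 in the epidermis arrays and at 7.24 and 7.16 in the cortex arrays. The difference was 5.40 ± 1.11 (adjusted p = 0.388). AT1G51840 and AT1G51830 also lack a symbol. AT1G51840 had 13.61, 14.03 and 13.67 in the epidermis and 8.88 and 8.92 in the cortex, a difference of 4.87 ± 1.08, and AT1G51830 differed by 5.40 ± 1.44. EXO70H1 encodes an exocyst subunit, which tethers secretory vesicles at the plasma membrane. Its levels were 12.24, 11.28 and 12.12 in the epidermis and 6.79 and 7.35 in the cortex (difference 4.81 ± 1.18). CAM8, a calmodulin-like calcium sensor, had 12.16, 11.14 and 10.44 in the epidermis against 6.44 and 6.92 in the cortex. MEE21, a gene needed for embryo development, was at 11.60, 11.06 and 12.15 in the epidermis and at 7.27 and 7.31 in the cortex. Its difference of 4.32 ± 0.76 also had one of the smallest p-values (adjusted p = 0.198), and its 2 cortex arrays nearly coincided.

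**Figure D2:**
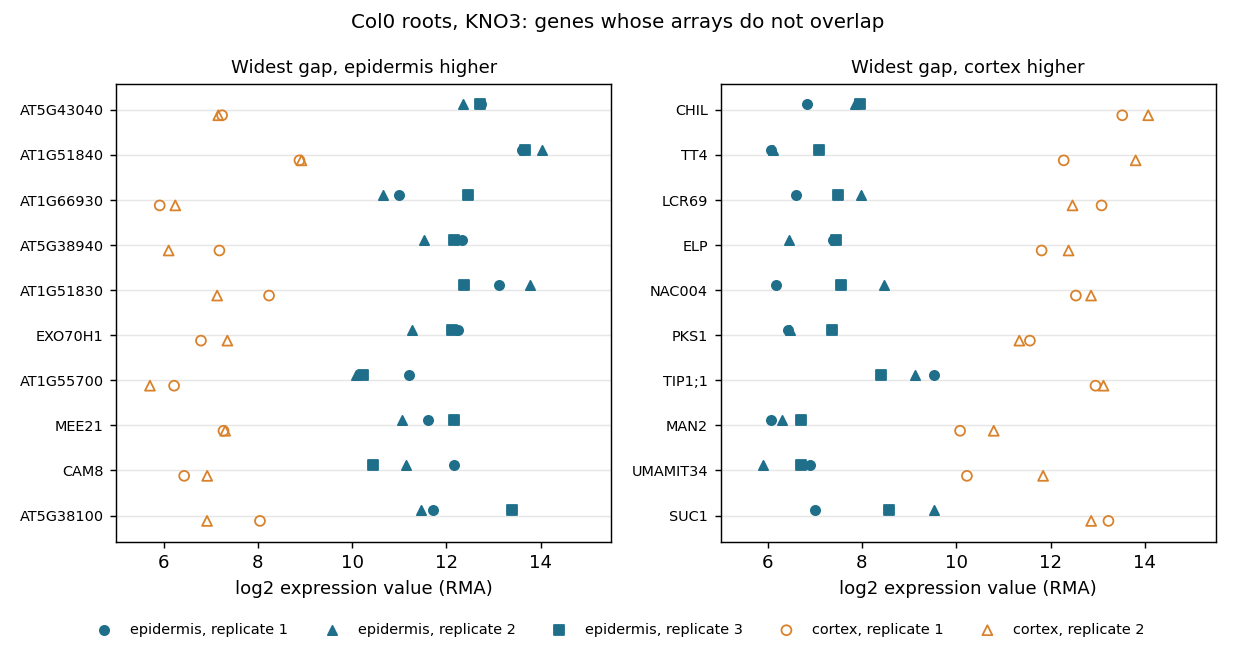
Log2 expression value (horizontal axis) of the 10 models with the widest gap in each direction, with epidermis arrays as filled symbols and cortex arrays as open symbols. AT5G43040 lies at 12.36 or above in the 3 epidermis arrays and at 7.24 or below in both cortex arrays, and CHIL lies at 7.96 or below in the epidermis and at 13.52 or above in the cortex.

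The widest gaps in favour of the cortex belonged to CHIL and TT4, which act at the entry to flavonoid synthesis. TT4 encodes chalcone synthase, the first committed enzyme of the pathway, and CHIL a chalcone isomerase-like protein that assists it. CHIL was at 6.84, 7.84 and 7.96 in the epidermis arrays and at 13.52 and 14.07 in the cortex arrays, a difference of -6.25 ± 1.54. TT4 was at 6.08, 6.12 and 7.08 in the epidermis and at 12.28 and 13.81 in the cortex, a difference of -6.62 ± 1.73 (adjusted p = 0.433 for both). In both genes cortex replicate 1, which stood apart over all models, was nearer the epidermis than replicate 2 but above all 3 epidermis arrays. The difference of TT4 was -7.38 without cortex replicate 1 and -5.86 without replicate 2.

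The same set held several transport genes. SUC1 encodes a sucrose-proton symporter and had 7.01, 9.54 and 8.57 in the epidermis against 13.23 and 12.86 in the cortex (-4.67 ± 1.79). The tonoplast aquaporin gene TIP1;1 had 9.52, 9.12 and 8.41 against 12.95 and 13.12 (-4.02 ± 1.59). UMAMIT34, of a family of amino acid exporters, differed by -4.53 ± 1.78. The remaining genes were LCR69, which encodes a small cysteine-rich protein of the plant defensin type (-5.42 ± 1.45), ELP, an extensin-like cell wall protein (-5.00 ± 1.86), the NAC factor gene NAC004 (-5.29 ± 1.42), PKS1, which codes for a substrate of phytochrome kinase activity (-4.69 ± 1.5), and the mannanase gene MAN2 (-4.08 ± 0.78).

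By p-value, the smallest values were those of AT5G57345 (-3.45 ± 0.54) and ABCE1 (-5.04 ± 0.83), both with an adjusted p of 0.173. ABCE1 belongs to a family of ATP-binding proteins known from yeast and animals for ribosome recycling. It was at 6.43, 6.01 and 6.46 in the epidermis and at 13.17 and 9.5 in the cortex, so its cortex arrays lay far from each other though both above the epidermis. GCD1, needed in gametes, had 12.08, 12.63 and 12.73 in the epidermis against 9.98 and 9.41 in the cortex (2.78 ± 0.48, adjusted p = 0.184). TIM10, a chaperone of mitochondrial protein import, differed by 4.06 ± 0.83, and LHCB4.2, an antenna protein of photosystem II, by -3.43 ± 0.70 (adjusted p = 0.388 for both). These genes kept the direction of their difference in every alternative, and AT5G57345 passed the threshold after quantile normalization (adjusted p = 0.0422). Without cortex replicate 2, AT5G57345, ABCE1, GCD1, TIM10 and MEE21 passed it too, but that fit sets cortex replicate 1 alone, the array of lowest correlation among the 5, against the epidermis, with its spread taken from the other groups.

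When the 4 arrays of low correlation were left out, 2 epidermis arrays were set against cortex replicate 2 alone, and 44 models passed, 3 with higher and 41 with lower levels in the epidermis. The 3 arrays of this fit are among the 5, so the values of the 44 models over the 5 arrays are no independent check. They included 2 models of BCAT-2, which degrades branched-chain amino acids, 2 of the beta-glucosidase gene BGLU18 and 1 of CAX1, a vacuolar calcium exchanger (these were chosen after their values were seen). The first model of BCAT-2 had 6.96, 6.79 and 7.79 in the epidermis against 8.57 and 11.66 in the cortex. Its other model had 6.07, 7.05 and 6.6 against 6.37 and 12.2, with cortex replicate 1 inside the epidermis range. CAX1 had 5.34, 5.25 and 5.36 against 5.71 and 9.53, so the separation of its cortex arrays from the epidermis was carried mainly by replicate 2. The spread of the lone cortex array was assumed here to be like that of the other groups.

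Markers of the non-hair epidermal fate were mostly higher in the epidermis. Of 13 measured, 11 were above 0 and the median difference was 1.1, against -0.17 over all models. The arrays of 3 members did not overlap, against 7.28% of all models with the epidermis higher, and none passed the test. The list median was 1.51 without cortex replicate 1 and 0.17 without replicate 2. WER, the MYB factor that sets the non-hair fate, was at 13.20, 11.92 and 13.39 in the epidermis and at 9.62 and 7.82 in the cortex (4.12 ± 1.62, adjusted p = 0.544). Its close relative MYB23 was at 12.24, 10.29 and 12.52 against 8.05 and 10.17 (2.57 ± 0.83), a gap of only 0.12 between the nearest arrays. ETC1, a small MYB protein that moves to hair cells, was at 10.37, 10.95 and 11.65 against 9.00 and 8.61 (2.19 ± 0.88). GL2, the homeodomain factor downstream of WER, had 10.17, 8.21 and 8.08 in the epidermis and 8.87 and 6.39 in the cortex, and the arrays overlapped.

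Root hair genes did not follow the same pattern. Of 39 measured, 9 were higher in the epidermis, with a median of -0.43. RHD6, the bHLH factor that starts hair formation, was at 12.44, 13.05 and 12.59 in the epidermis and at 11.51 and 7.83 in the cortex (3.02 ± 1.31). AT5G17820, a member of the hair list without a symbol, had 11.68, 9.24 and 11.83 against 9.52 and 6.13 (3.09 ± 1.62). In 25 of the 39 the level over the other groups was below the median of all models, and 12 of the 39 lay below the median of each of the 5 arrays. RSL4, the bHLH factor that drives hair elongation downstream of RHD6, was at 6.97, 6.69 and 6.80 against 9.66 and 6.48. The cell wall gene XTH14 was at 7.12, 6.81 and 8.03 against 10.38 and 7.18. In 24 of the 39 genes cortex replicate 1 exceeded all 3 epidermis arrays, and in 20 cortex replicate 2 lay below all 3. Over all models those shares were 43.7% and 29.7%. The list median was 0.46 without cortex replicate 1 and -0.98 without replicate 2, so its sign rested on a single array.

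All 5 cortex markers were lower in the epidermis (median -1.79), and in 3 of them the arrays did not overlap, against 8.58% of all models. AT5G02000 was at 10.33, 9.23 and 8.78 in the epidermis and at 12.70 and 11.97 in the cortex (-2.89 ± 0.84, adjusted p = 0.433). C/VIF2, an inhibitor of invertases, was at 8.64, 8.06 and 9.98 against 10.99 and 10.39 (-1.79 ± 1.13). AT1G62510 was at 7.95, 7.61 and 9.30 against 10.41 and 9.34. AT1G09750 had 7.29, 7.13 and 8.34 against 8.19 and 11.06, and AT1G62500 had 8.46, 8.04 and 9.94 against 10.97 and 8.20. The last of these changed sign, to 0.62, without cortex replicate 1.

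The 8 genes of ground tissue patterning were all lower in the epidermis, with a median of -1.23 and no overlap of the arrays in 3, against 8.58% of all models with the cortex higher. NUC, a zinc finger factor that acts with SHR and SCR, was at 7.20, 6.93 and 8.15 in the epidermis and at 8.63 and 10.22 in the cortex (-2.0 ± 1.32). SCL3, a GRAS factor of the ground tissue that also takes part in gibberellin responses, was at 8.85, 8.26 and 9.12 against 9.22 and 11.22 (-1.48 ± 1.02). SHR, which is made in the stele and moves outward, was at 7.81, 7.26 and 8.69 against 10.46 and 7.56. Without cortex replicate 1 the list median was -1.70 and without replicate 2 it was -0.83.

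Markers of inner tissues should be scarce in both sorted populations. The endodermis list (16 genes) averaged 6.96, 8.23 and 7.67 in the epidermis arrays and 9.77 and 7.15 in the cortex arrays. The stele list (23 genes) averaged 7.66, 7.51 and 8.07 against 9.04 and 7.68. Both stood out in cortex replicate 1 alone. MYB36, a MYB factor of endodermal differentiation, was at 6.63, 10.23 and 7.52 in the epidermis and at 12.25 and 6.63 in the cortex. Cortex replicate 1 exceeded all epidermis arrays in 12 of the 16 endodermis genes and 19 of the 23 stele genes. Cortex replicate 2 did so in 1 and 3. Among all models replicate 1 did so in 43.7% and replicate 2 in 20%. The endodermis median of -0.87 became 0.38 without cortex replicate 1, and the stele median of -0.69 became 0.21. In 14 of the 16 endodermis genes and 19 of the 23 stele genes the level over the other groups was below the median of all models, the range in which replicate 1 read high. The part of the deviation of cortex replicate 1 over dim models in the list values was not tested. In bulk samples fewer cells of a type and less RNA per cell cannot be told apart.

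GSO1, a receptor kinase of the endodermal barrier, was higher in both cortex arrays, at 7.07, 7.28 and 7.22 in the epidermis against 8.99 and 8.49 in the cortex. BRX, a regulator of phloem and root growth, was at 7.84, 8.28 and 8.79 against 10.64 and 8.93 (-1.49 ± 0.69), and its difference was -0.63 without cortex replicate 1. Of the 5 root cap genes 2 were higher in the epidermis. FEZ is a NAC factor of the dividing cells that give rise to epidermis and lateral root cap. It was at 8.88, 9.86 and 8.97 in the epidermis against 8.21 and 6.14 in the cortex (2.06 ± 0.82, adjusted p = 0.548). The other members differed by -1.27 (SMB), -0.48 (BRN1), -0.46 (BRN2) and 0.02 (CEL5). The root cap list averaged 8.42, 8.84 and 9.10 in the epidermis and 10.30 and 7.32 in the cortex, and its median of -0.46 was 1.67 without cortex replicate 1 and -1.74 without replicate 2.

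Cell cycle genes were mostly higher in the epidermis. Of 13 measured, 11 were above 0 with a median of 0.98, and the arrays of 5 did not overlap, against 7.28% of all models with the epidermis higher. Over all models 40.9% were above 0. CYCB1;2, a mitotic cyclin, was at 11.40, 10.92 and 9.75 in the epidermis and at 7.24 and 6.50 in the cortex (3.82 ± 1.58). KNOLLE, a syntaxin that builds the cell plate, was at 12.46, 10.22 and 11.89 against 7.35 and 8.79 (3.45 ± 1.21). AUR1, an Aurora kinase of mitosis, was at 9.17, 8.82 and 8.07 against 6.11 and 6.13 (2.57 ± 0.64, adjusted p = 0.433), with nearly equal cortex arrays. The list median was 1.48 without cortex replicate 1 and 0.89 without replicate 2.

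**Figure D3:**
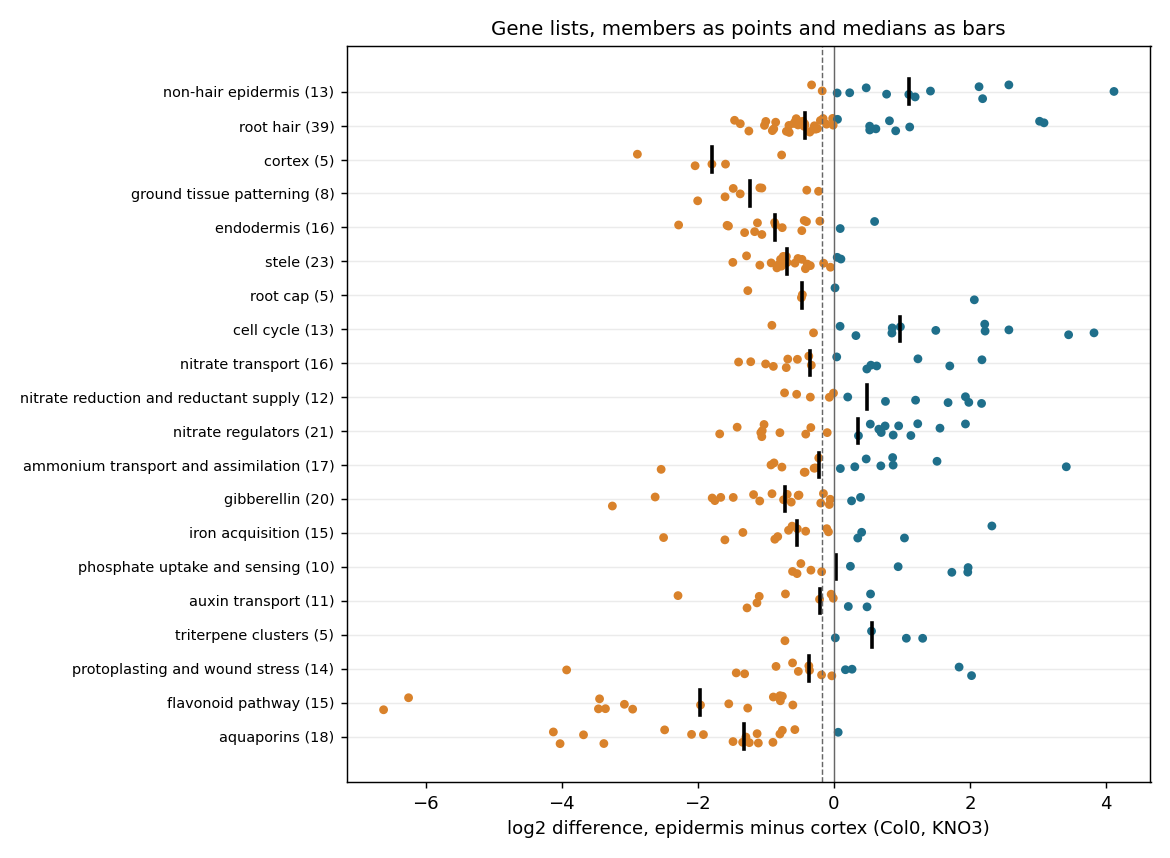
Log2 difference, epidermis minus cortex (horizontal axis), of each measured member of 20 gene lists, with the number measured in brackets, medians as black bars, members above 0 in blue and below 0 in orange, and the median of all models as the dashed line at -0.17. Non-hair epidermis and cell cycle genes lie mostly to the right, cortex, ground tissue, flavonoid and aquaporin genes to the left, and the nitrogen lists on both sides.

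Nitrate transport genes lay on both sides, with 7 of 16 higher in the epidermis and a median of -0.35. The median was 0.39 without cortex replicate 1 and -0.64 without replicate 2. NRT1.1, the dual-affinity nitrate transporter and sensor, was at 13.11, 13.41 and 11.93 in the epidermis and at 8.19 and 13.09 in the cortex (2.18 ± 0.99, adjusted p = 0.611). CLC-A, which loads nitrate into the vacuole, was at 12.65, 11.75 and 10.37 against 7.31 and 12.46. In both genes cortex replicate 2 matched the epidermis and replicate 1 was far below, and the difference was -0.28 for NRT1.1 and -0.87 for CLC-A without replicate 1. NRT2.1, the main high-affinity transporter, was dim in most of the arrays, at 7.77, 7.53 and 9.26 against 10.42 and 7.96. NRT1.8, which retrieves nitrate from the xylem, was at 7.01, 6.76 and 7.20 against 9.05 and 7.74, with no overlap (-1.40 ± 0.69).

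Nitrate reduction and its reductant supply were strongly expressed in both cell types, with list means of 13.27, 13.59 and 12.42 in the epidermis arrays and 11.67 and 13.15 in the cortex arrays. Of 12 genes 7 were higher in the epidermis, with a median of 0.48. NIR1, the nitrite reductase, was at 14.18, 14.26 and 12.86 in the epidermis and at 9.37 and 13.82 in the cortex (2.17 ± 0.86), and without cortex replicate 1 its difference was -0.06. RFNR2, a root ferredoxin reductase that feeds electrons to it, was at 12.39, 12.20 and 10.99 against 8.61 and 11.15. The arrays of 2 genes higher in the epidermis and of 1 higher in the cortex did not overlap. The shares of such models over all models were 7.28% and 8.58%. AT5G41670, a member of the list without a symbol, was at 14.03, 14.22 and 13.07 against 12.14 and 13.01, a gap of 0.07. G6PD3 was at 13.11, 13.35 and 12.26 against 10.54 and 11.91, a gap of 0.35. The nitrate reductase genes NIA1 and NIA2 were named after their values were seen. NIA1 was at 13.23, 14.21 and 11.61 against 13.09 and 14.04, and NIA2 at 13.64, 14.28 and 12.28 against 13.21 and 14.29, so both overlapped widely. None of the 12 genes lay below the median level of all models. In cortex replicate 1, 7 were below all epidermis arrays, and in cortex replicate 2, 2 were, against 22.9% and 29.7% of all models. The list median was -0.08 without cortex replicate 1 and 0.94 without replicate 2. Over bright models cortex replicate 1 lay mostly below the mean of the other groups, and the part of this in the nitrate genes was not tested. NRT1.1, NIR1, GLN2 and WRKY40 passed the threshold only when cortex replicate 2 was left out, which leaves replicate 1 as the lone cortex array.

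Regulators of the nitrate response were split, 11 of 21 higher in the epidermis (median 0.36). The median was -0.26 without cortex replicate 1 and 0.75 without replicate 2. BT2, a scaffold protein induced by nitrate, was at 8.95, 11.15 and 9.29 in the epidermis and at 11.22 and 11.72 in the cortex (-1.68 ± 0.97). CPK30, one of the calcium-dependent kinases that relay nitrate signals to NLP factors, was at 9.14, 9.42 and 10.18 against 8.00 and 8.71 (1.23 ± 0.58). CIPK8, a kinase of the primary nitrate response, differed by 1.93 ± 1.22 with all arrays and by -0.18 without cortex replicate 1.

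Among 17 genes of ammonium transport and assimilation, 8 were higher in the epidermis (median -0.22). AMT1;3, a high-affinity ammonium transporter of the outer root, was the only one whose arrays did not overlap, against 7.28% of all models with the epidermis higher. It was at 11.84, 11.97 and 10.84 in the epidermis and 8.66 and 7.61 in the cortex (3.41 ± 1.1, adjusted p = 0.466). GLN2, the plastid glutamine synthetase, was at 13.39, 12.80 and 12.46 against 10.09 and 12.65. GLU1, a ferredoxin-dependent glutamate synthase, was at 7.14, 9.13 and 7.68 against 8.94 and 12.11 (-2.54 ± 1.19).

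Of 20 gibberellin genes, 18 were lower in the epidermis (median -0.71) and the arrays of 5 did not overlap, against 8.58% of all models with the cortex higher. In 12 of the 20 the level over the other groups was below the median of all models. Cortex replicate 1 exceeded all epidermis arrays in 15 and replicate 2 in 7, against 43.7% and 20% of all models. The part of the deviation of cortex replicate 1 over dim models in these counts was not tested. Among the enzymes, GA3OX1, which makes the active hormone, was at 7.23, 6.38 and 7.17 in the epidermis and at 8.37 and 10.73 in the cortex (-2.63 ± 1.66). GA2OX2, which inactivates it, was at 6.67, 11.21 and 6.96 against 13.05 and 10.02 (-3.26 ± 1.58), with epidermis replicate 2 above the lower cortex array. Of the signalling genes, RGA, a DELLA repressor, was at 8.94, 7.19 and 7.29 against 10.35 and 8.77 (-1.75 ± 0.67, adjusted p = 0.53). The DELLA gene GAI, named after its values were seen, was at 10.88, 10.02 and 10.21 against 11.85 and 11.26 with no overlap (-1.18 ± 0.49). SLY1, the F-box protein that marks DELLA proteins for degradation, was at 8.43, 7.88 and 7.36 against 8.48 and 10.88. SCL26 itself was at 7.94, 8.82 and 7.58 in the epidermis and at 10.48 and 7.0 in the cortex (-0.63 ± 0.93, adjusted p = 0.884). The cortex arrays enclosed the epidermis arrays, and the difference was 1.11 without cortex replicate 1 and -2.36 without replicate 2.

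In iron acquisition 4 of 15 were higher in the epidermis (median -0.54), and the arrays of 1 higher and 3 lower genes did not overlap. The shares of such models over all models were 7.28% and 8.58%. The median was 0.22 without cortex replicate 1 and -1.01 without replicate 2. FRU, the bHLH factor that turns on iron uptake, was at 13.49, 12.89 and 13.75 in the epidermis and at 11.96 and 10.14 in the cortex (2.32 ± 0.92). FER1, which stores iron as ferritin, was at 7.62, 8.76 and 9.05 against 10.72 and 11.24 (-2.50 ± 0.63, adjusted p = 0.433). In phosphate uptake and sensing 5 of 10 were higher (median 0.03), 3 of them with no overlap, against 7.28% of all models. The median was 0.26 without cortex replicate 1 and 0.63 without replicate 2. The transporter gene PHT1;2 was at 12.35, 12.27 and 11.73 against 9.24 and 11.06, and PHO2, which directs phosphate transporters to degradation, at 10.87, 12.16 and 11.49 against 8.48 and 10.59. PHT1;2 has close paralogues, and the specificity of its probes was not checked.

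In auxin transport 3 of 11 were higher, and the median of -0.21 was 0.21 without cortex replicate 1 and -0.9 without replicate 2. The efflux carrier gene PIN7 was at 6.40, 6.23 and 6.78 in the epidermis against 9.74 and 7.78 in the cortex (-2.29 ± 0.79). Of the 5 triterpene cluster genes 4 were higher, and the median of 0.55 was 0 without cortex replicate 1 and 1.1 without replicate 2. THAH, a P450 of thalianol synthesis, was at 14.48, 14.26 and 14.51 against 12.71 and 13.99, and its models differ in sign. In the protoplasting and wound stress list 4 of 14 were higher (median -0.36). LOX2, of jasmonate synthesis, was at 5.93, 5.91 and 5.89 against 6.92 and 12.76, nearly all of it from cortex replicate 2. WRKY53, a defence factor, was at 9.42, 9.79 and 10.56 against 7.82 and 7.98 (2.02 ± 0.68). WRKY40 was at 11.34, 12.58 and 13.77 against 8.11 and 13.34 and changed sign, to -0.78, without cortex replicate 1.

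The flavonoid and aquaporin lists were put together after TT4, CHIL, TIP1;1 and PIP2;3 had been seen among the named genes, so their counts are descriptions only. All 15 flavonoid genes were lower in the epidermis, with a median of -1.96. The arrays of 8 did not overlap, against 8.58% of all models with the cortex higher, and in 7 the unadjusted p was under 0.05, against 3.37% of all models. In 9 of the 15 the level over the other groups was below the median of all models, where cortex replicate 1 read high, and the part of this was not tested. The list median was -1.97 without cortex replicate 1 and -1.64 without replicate 2. Past the entry enzymes, F3H, which hydroxylates flavanones, was at 7.25, 7.02 and 7.76 in the epidermis and at 8.55 and 12.85 in the cortex (-3.36 ± 1.55). FLS1, the flavonol synthase, was at 9.86, 8.58 and 7.72 against 9.70 and 14.63, with cortex replicate 1 inside the epidermis range. UGT78D2, a flavonoid glucosyltransferase, was at 6.54, 6.94 and 8.91 against 9.65 and 12.20 (-3.46 ± 1.09). MYB12, the factor that activates flavonol genes, was at 7.96, 9.44 and 10.84 against 11.82 and 13.16 (-3.08 ± 0.95, adjusted p = 0.441). Epidermis replicate 3 was the highest epidermis array in MYB12, UGT78D2 and TT4.

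Of 18 aquaporin genes 17 were lower in the epidermis (median -1.32), the arrays of 13 did not overlap, against 8.58% of all models with the cortex higher, and in 8 the unadjusted p was under 0.05, against 3.37% of all models. PIP2;3 was at 8.14, 9.88 and 8.55 in the epidermis and at 13.58 and 12.38 in the cortex (-4.12 ± 0.86, adjusted p = 0.388). PIP2;1 was at 10.13, 12.23 and 8.40 against 13.70 and 14.17, and PIP2;2 at 9.86, 12.88 and 10.46 against 14.87 and 14.02. PIP proteins carry water across the plasma membrane. PIP2;2 and PIP2;3 are close paralogues, so their probes may read each other's transcript. In 3 of the 18 the level over the other groups was below the median of all models. Cortex replicate 1 exceeded all epidermis arrays in 14 of the 18, and cortex replicate 2 in 16, against 43.7% and 20% of all models. The list median was -1.59 without cortex replicate 1 and -1.29 without replicate 2.

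**Figure D4:**
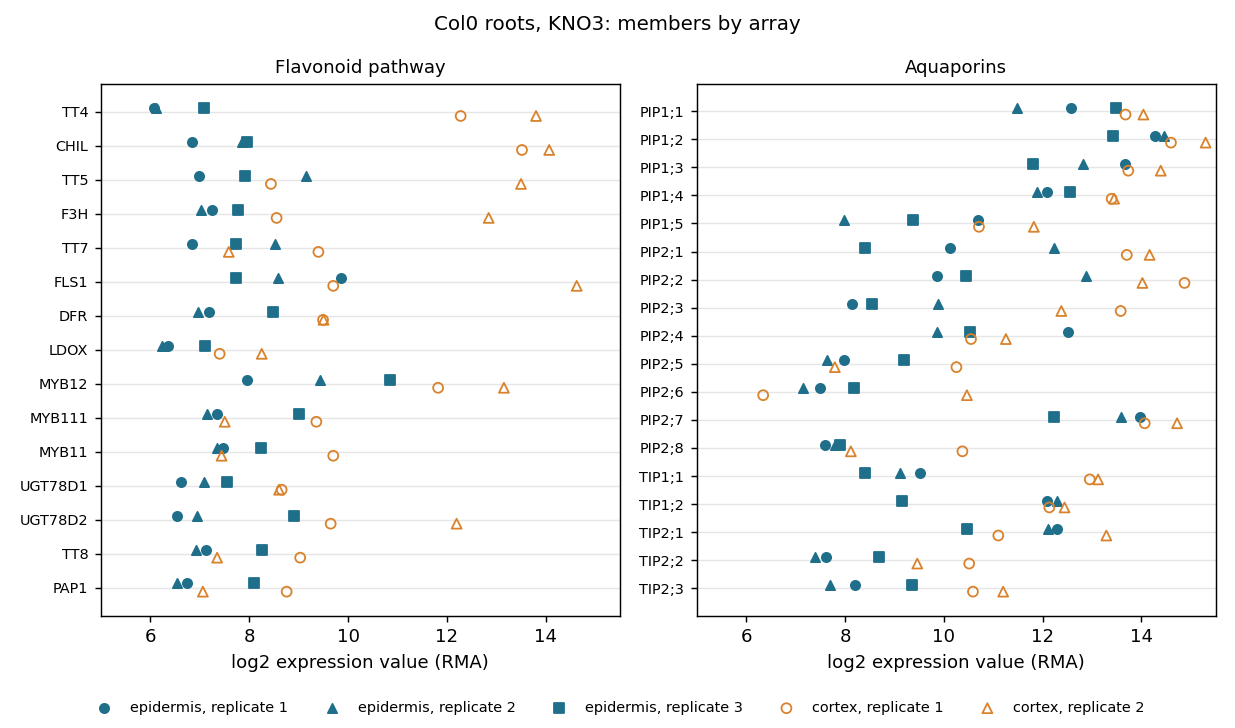
Log2 expression value (horizontal axis) of the 15 flavonoid and 18 aquaporin genes in each array, with epidermis arrays as filled symbols and cortex arrays as open symbols. Both cortex arrays lie to the right of all epidermis arrays in 8 flavonoid and 13 aquaporin genes, while in FLS1 only cortex replicate 2, at 14.63, stands clear.

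The same comparison could be read in 3 sets of arrays that share none with these 5. Across the 31524 models, the difference correlated with that in Col0 KCl at r = 0.012 (rho = -0.086), with that in atscl26 KNO3 at r = -0.001 (rho = 0.096) and with that in atscl26 KCl at r = 0.363 (rho = 0.316). Models are not independent, so these are descriptions. Of the 10 models with the widest gap in favour of the epidermis, 10 were above 0 in Col0 KCl, 3 in atscl26 KNO3 and 10 in atscl26 KCl, with medians of 1.94, -0.59 and 2.75. Of the 10 with the widest gap in favour of the cortex, 1 was above 0 in Col0 KCl, 9 in atscl26 KNO3 and 0 in atscl26 KCl, with medians of -2.46, 1.88 and -3.13. Over all models 50.5%, 41.4% and 42.6% were above 0. In atscl26 KNO3, 4 of the 6 arrays were nearer the other cell type by the marker score. Without the 7 such arrays the counts were 10, 8 and 10 for the first set and 1, 2 and 0 for the second, and the correlations were r = 0.35 in Col0 KCl, 0.376 in atscl26 KNO3 and 0.403 in atscl26 KCl. Removing arrays by cell type markers turns cell type differences toward the labels by construction. Col0 KCl then held 1 epidermis array against 3 cortex arrays, and atscl26 KNO3 held 1 array of each cell type.

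TT4 differed by -3.62 ± 1.55 in Col0 KCl, 2.61 ± 1.55 in atscl26 KNO3 and -3.70 ± 1.73 in atscl26 KCl. WER differed by 2.01 ± 1.45, -2.23 ± 1.45 and 3.58 ± 1.62, and AT1G51840 by 2.41, -0.11 and 3.08. LCR69 stood at 1.92 ± 1.3 in Col0 KCl, against -5.42 under KNO3. The cell cycle genes, of which 11 of 13 were higher in the epidermis under KNO3 in Col0, numbered 3 in Col0 KCl, 7 in atscl26 KNO3 and 10 in atscl26 KCl. All 8 ground tissue genes were lower in the epidermis under KNO3 in Col0, and 2 were higher in Col0 KCl, 6 in atscl26 KNO3 and 0 in atscl26 KCl. Replicates 1 and 2 of Col0 epidermis KCl were nearer the other cell type by the marker score. Replicate 2 of that group had a median correlation of 0.562 with the other arrays. The part of this in the Col0 KCl values was not tested.

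**Figure D5:**
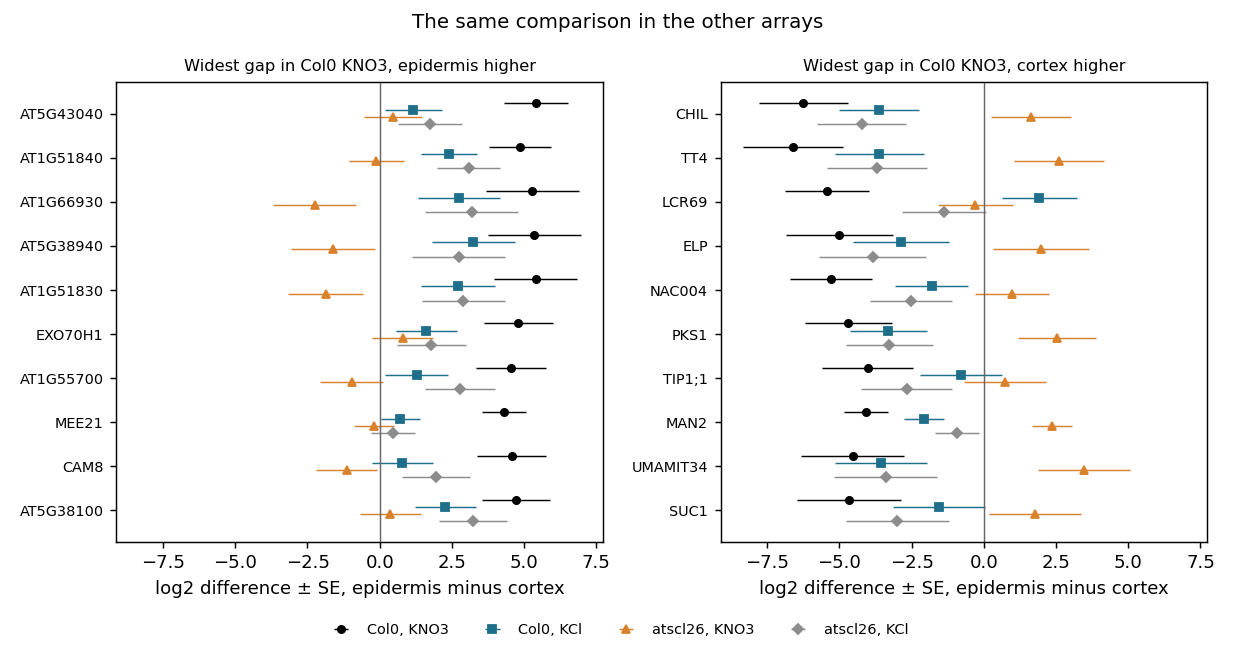
Log2 difference ± SE, epidermis minus cortex (horizontal axis), of the 10 models with the widest gap in each direction under KNO3 in Col0, and of the same models in Col0 KCl, atscl26 KNO3 and atscl26 KCl. The differences in Col0 KCl and atscl26 KCl lie on the same side as in Col0 KNO3 for all models but LCR69 in Col0 KCl, at 1.92, while those in atscl26 KNO3 lie mostly on the other side or near 0.

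Whether the cell type difference itself depended on nitrate was tested as an interaction, the difference in Col0 KNO3 minus that in Col0 KCl. The test passed no model in limma (0%, lowest adjusted p = 0.761). Without adjustment, p was under 0.05 for 2051 (6.51%). These were 1310 with a positive interaction (4.16%) and 741 with a negative one (2.35%). Among the smallest p-values were GCD1, at 2.64 ± 0.64, and ABCE1, at -5.68 ± 1.12. LCR68, a defensin-type relative of LCR69, was at 6.24, 6.24 and 6.83 in the epidermis and at 10.99 and 9.51 in the cortex under KNO3. Its interaction was -5.50 ± 1.25. Without the arrays nearer the other cell type, Col0 epidermis KCl held 1 array. The median interaction over all models was then -0.1, against -0.153 with all arrays.

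The interaction with genotype, the difference in Col0 KNO3 minus that in atscl26 KNO3, likewise passed no model in limma (0%). Without adjustment, p was under 0.05 for 2120 models (6.73%), positive in 1050 (3.33%) and negative in 1070 (3.39%). The lowest adjusted p was 0.061, for GCD1 at 4.42 ± 0.64 and for emb2738 at 5.82 ± 0.89. The gene emb2738 is needed for embryo development and was at 10.08, 9.87 and 11.09 in the epidermis and at 7.71 and 8.06 in the cortex of Col0 under KNO3. MAN2, at 6.08, 6.30 and 6.70 in the epidermis against 10.08 and 10.80 in the cortex, had an interaction of -6.44 ± 1.04 (adjusted p = 0.0894). RIP3, a partner of ROP GTPases that acts on microtubules, had 6.65 ± 1.31 (adjusted p = 0.276). Without the arrays nearer the other cell type, atscl26 KNO3 held 1 array of each cell type. The median interaction over all models was then 0.305, against 0.043 with all arrays.

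A second deposited table gives the authors' averages per group. The average of Col0 cortex KNO3 in the authors' deposited table equals the mean of 3 arrays, the 2 labelled as that group and replicate 1 of atscl26 cortex KCl, to within 5e-09. It departs from the mean of the 2 labelled arrays by up to 1.741 log2 units, with a median departure of 0.218. The average of Col0 epidermis KNO3 there equals the mean of its 3 arrays. Read from the authors' deposited table, 3019 models (9.6%) take the other sign and 230 (0.7%) move by more than 1 log2 unit. Of the genes named above, all those checked in that table (without NIA1, NIA2, GAI, BCAT-2, BGLU18 and CAX1) keep their sign in the authors' deposited table.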

How the data were processed

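RNA from sorted protoplasts was hybridised to NimbleGen one-colour arrays designed on TAIR10. The authors deposited log2 values for each transcript model on each array. Per the submitters' processing notes these were made with RMA, whose settings are not stated there. RMA equalises the distributions of arrays, so a shift shared by most genes cannot be seen. Array medians lay between 8.78 and 9.04. Probe positions and signal over background were not used here, and precision is limited by the number of arrays.

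The values were fitted with limma 3.58.1 in R 4.3.3 with 1 mean per group over all 22 arrays and 8 groups (14 residual degrees of freedom) and no filter, with Benjamini-Hochberg adjustment over 31524 models of 27143 loci at a threshold of 0.05. The script was tested on simulated data. Names came from the TAIR10.1 RefSeq annotation, which held 30935 models, 12507 with a symbol. Genes were named by smallest p, widest gap between cell types (10 in each direction), and largest difference in each of 18 lists, with the lowest-numbered model standing for a locus. Another 2 lists were chosen after their values were seen. The members and lists were chosen with earlier results of these data known. Lists are described by counts and medians. Alternatives were quantile normalization, subtracted medians, a filter on dim models, another variance prior, array weights, fewer arrays, a replicate block, 1 model per locus and the authors' averages, the last added after seeing the data. One member of the endodermis list is counted in its summaries but not reported by name.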

Additional observations from a re-analysis of the deposited data

How the results depend on the processing

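The count of models past the threshold between epidermis and cortex was 0 under subtracted medians, the filter on dim models, the other variance prior, array weights (whose iteration stopped before its tolerance), the fit on the arrays of the contrast and 1 model per locus. It was 1 after quantile normalization and 44 without the low-correlation arrays. Leaving out 1 array gave 0 to 827, and the cause was not tested. For the interaction with nitrate it was 8 without the low-correlation arrays and 0 to 674 leaving out 1 array, with 674 without cortex KNO3 replicate 2 and 5 without epidermis KCl replicate 1. For the interaction with genotype it was 2 with array medians subtracted, 20 without the low-correlation arrays and 0 to 223 leaving out 1 array, with 223 without Col0 cortex KNO3 replicate 2, 5 without atscl26 epidermis KNO3 replicate 1 and 1 without Col0 cortex KNO3 replicate 1. Subtracting medians moved the median of the interaction with nitrate to 0.004, against -0.153. Same-numbered epidermis and cortex arrays had deviations from their group means correlated at -0.09 for number 1 and 0.35 for number 2. The 2 cortex arrays deviate from their mean as mirror images, so these values cannot decide whether the numbers pair the samples. Over all pairs of groups the median was -0.01 for same-numbered arrays. With a replicate block 0 models passed in limma in the comparison and in both interactions, and 1985 had an unadjusted p under 0.05 in the comparison. Over 1255 alternatives for single named genes, 1211 kept their direction and, where tested, their side of the threshold. Another 12 came to pass it and 23 took the other sign. In the authors' deposited averages 9 kept their sign but moved by more than 1 SE of the difference. The size of a shift was compared with the SE only in those averages, so the 1211 include refits with large shifts. LOX2, for example, was -3.93 with all arrays and ranged from -6.85 to -1.01 leaving out 1 array. Without the low-correlation arrays the difference was 0.052 for AT1G62500, -0.81 for CIPK8, -0.259 for CLC-A, 1.802 for MYB36, 0.351 for RSL4, 1.376 for SCL26 and -1.379 for WRKY40. Leaving out 1 array at a time, AT1G62500 ranged from -2.15 to 0.62, CIPK8 from -0.18 to 4.05 and CLC-A from -0.87 to 4.28. GL2 ranged from -0.049 to 2.44, MYB36 from -4.12 to 1.5, NIA1 from -1.14 to 0.16, NIA2 from -0.88 to 0.22 and NIR1 from -0.055 to 4.39. NRT1.1 ranged from -0.28 to 4.63, NRT2.1 from -2.23 to 0.22, RSL4 from -2.84 to 0.34, SCL26 from -2.36 to 1.11, SHR from -2.54 to 0.36, WRKY40 from -0.78 to 4.46 and XTH14 from -3.06 to 0.14.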

Other observations

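The authors' averages also mix arrays in a second group. The average of Col0 epidermis KCl in the authors' deposited table equals the mean of replicates 1 and 3 of that group and replicate 1 of atscl26 epidermis KNO3, and departs from the mean of the labelled arrays by up to 2.614 log2 units, with a median departure of 0.507. The averages of the 6 groups other than this one and Col0 cortex KNO3 equal the means of their labelled arrays in the authors' deposited table.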
